A study of Mus musculus with 10 samples.

Results

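Small nucleolar RNA (snoRNA) genes were followed in mouse Neuro2a cells, a neuroblastoma line, after transfection of plasmids that encode repressors of Scn9a, the gene of the voltage-gated sodium channel NaV1.7. A snoRNA gene was counted as detected when GENCODE M21, a gene annotation of the mouse genome build GRCm38, gave it the snoRNA type and its unstranded read count summed to at least 30 over the 6 dCas9 libraries. That left 42 of the 1507 snoRNA genes listed. Of the 1507, 246 had any count in those 6 libraries and 1237 had none in any of the 10 libraries. The members were thus chosen by their summed count in those 6 libraries, which is described below and not tested.

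As background, snoRNAs are short RNAs that work in the nucleolus as guides for the modification of ribosomal RNA. Box C/D snoRNAs carry the methyltransferase fibrillarin to a base-paired site for ribose methylation, and box H/ACA snoRNAs carry the pseudouridine synthase dyskerin. Most in mammals have no promoter of their own: they lie in introns of host genes, many of which encode ribosomal proteins, and are cut out of the spliced intron and trimmed at both ends. A change in a snoRNA can therefore be read beside the spliced RNA of its host.

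All cells were wild-type Neuro2a and received 0.5 µg of each plasmid with 2 µL of Lipofectamine, with incubation for 72 h. The dCas9-SCN9A group (n = 3) received a catalytically dead Cas9 directed at Scn9a and was compared with dCas9-empty (n = 3), which names no target. The ZF-SCN9A group (n = 2) received a zinc finger construct for the same gene and was compared with mCherry (n = 2), a plasmid named for a fluorescent protein and taken here as the control of that arm. The labels do not say whether replicates came from separate cultures, so p-values measure the spread between these libraries, which may be technical. Counts assigned to genes were 15356843 to 18984566 per library in the dCas9 arm and 4412097 to 7478956 in the zinc finger arm. Scn9a stood at 75.1, 80.9 and 78.1 CPM (the count of a gene scaled to a common library size) with dCas9-empty against 30.9, 30.8 and 28.2 with dCas9-SCN9A, and at 62.2 and 56.1 with mCherry against 18.8 and 15.6 with ZF-SCN9A, in the direction of the labels. Of genes that mark neuroblastoma cells, Hand2 ranged from 304 to 456 CPM over the 10 libraries and Chga from 261 to 330 CPM. Of markers of other cells, Ptprc (immune) and Gfap (glia) stayed under 1 CPM in every library, while Pecam1 (endothelial) reached 24.0 CPM and Mbp (glia) 31.1 CPM. RNA was purified on silica columns, which retain short RNA poorly, so the counts describe what remained of these RNAs in the libraries and not their level in the cell.

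The sequences of 8 genes are shown because the results turn on them: the pair of highest count, the box C/D genes with the highest and the lowest change with dCas9-SCN9A, and 2 pairs that share a host gene. Capitals in a box C/D gene mark TGATG (C box) within the first 20 bases and CTGA (D box) within the last 20. Capitals in a box H/ACA gene mark ANANNA (H box), whose centre lies within 15% of the length from the middle, and ACA within the last 8 bases. Each is the GENCODE M21 transcript, 5′ to 3′.
Snora17: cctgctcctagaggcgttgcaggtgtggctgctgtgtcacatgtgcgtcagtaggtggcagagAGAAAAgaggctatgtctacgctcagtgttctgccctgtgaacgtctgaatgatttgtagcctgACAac
Snord104: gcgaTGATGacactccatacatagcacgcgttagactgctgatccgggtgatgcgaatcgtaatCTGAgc
Snord72: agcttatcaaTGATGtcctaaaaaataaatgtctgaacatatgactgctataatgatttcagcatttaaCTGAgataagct
Gm24494: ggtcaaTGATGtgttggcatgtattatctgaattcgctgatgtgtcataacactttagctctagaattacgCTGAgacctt
Gm22270: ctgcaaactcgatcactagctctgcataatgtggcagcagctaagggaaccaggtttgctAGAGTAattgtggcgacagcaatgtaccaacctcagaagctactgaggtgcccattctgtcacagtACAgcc
Gm26387: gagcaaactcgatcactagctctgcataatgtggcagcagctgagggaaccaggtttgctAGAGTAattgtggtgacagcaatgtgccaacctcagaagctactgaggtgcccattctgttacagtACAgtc
Snord49a: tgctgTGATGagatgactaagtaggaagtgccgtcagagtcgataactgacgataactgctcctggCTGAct
Snord49b: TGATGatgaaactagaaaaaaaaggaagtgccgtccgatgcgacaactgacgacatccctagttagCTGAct

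Snora17 (ENSMUSG00000077192) lies at chr2:26639190-26639321 on the minus strand, and Snord104 (ENSMUSG00000065126) at chr11:106500993-106501062 on the plus strand, both GRCm38. Snord72 lies at chr15:5118404-5118484 in an intron of Rpl37 and Gm24494 at chr3:153911610-153911690 in an intron of Rabggtb. Gm22270 (chr5:107905177-107905308) and Gm26387 (chr5:107907345-107907476) sit in introns of Rpl5 and were identical at 94.7% of positions in an alignment of their whole length, so reads could be shared between them and their counts are uncertain. Snord49a (chr11:62603450-62603521) and Snord49b (chr11:62603079-62603150) sit in introns of the noncoding gene 2410006H16Rik and were identical at 69.2%. In the other pairs that share a host and were compared, identity was 73.2% between Rnu73b and Snord73a in Rps3a1 and 51.0% between Gm22571 and Gm23136 in Rpl4.

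The C and D letters were found in 22 of the 42 detected genes (52.4%), against 23.6% of all 1507 annotated snoRNA genes and 0.175% of 139731 other transcripts of 65 bases or more. The H and ACA letters were found in 17 (40.5%), against 39.5% of all snoRNA genes and 10.4% of the other transcripts. Only the transcript strand was searched, and 2 genes held both pairs and were counted as C/D, which left 15 as H/ACA and 5 with neither. The C/D genes were 65 to 144 bases long and the H/ACA genes 95 to 246. An annotated near-copy (by a local alignment, with at least 95% identity over at least 80% of the length) existed for 6 of the 42: Gm22270, Gm26387, Gm23823, Snora57, Gm25291 and Snora41.

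The 42 genes lay on 17 chromosomes, and 35 of them lay within a gene of the same strand, 29 different hosts in all. Of the hosts 25 code for protein and 4 do not. Ribosomal proteins are encoded by 11 hosts, which hold 16 of the detected snoRNAs, with Rpl17 holding 3 (Gm23301, Snord58b and Gm26202). The distance from a snoRNA to the nearest exon of its host was 0 to 1258 bases, with a median of 106. No host in GENCODE M21 was found for 7: Snora17, Snord104, Gm22622, Gm22478, Gm23823, Snora57 and Gm25965. The last 4 lie under a gene of the other strand (Snrnp70, Enox1, Lbhd1 and Pkn2, in that order), and since the counts used do not separate strands their reads could come from either gene. RefSeq places Snora17 inside the noncoding gene Snhg7, which is not a GENCODE M21 entry, so no host count goes with it here.

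Detection differed with the exons annotated over a snoRNA gene. Of 172 snoRNA genes wholly covered by exons of another gene, 2 had any count in the dCas9 libraries and 1 was detected by the rule above, Gm23201 in the noncoding host Zfas1. Of 1277 with no such exon over them 229 had a count and 41 were detected. As background, the STAR gene counter sets aside as ambiguous a read that overlaps exons of 2 genes, and its part in these counts was not tested.

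Counts were few. The summed count in the 6 dCas9 libraries was 719 for Snord104 and 537 for Snora17, and these alone held 29.8% of the counts of the 42. Next came Gm26397 with 182, Gm24494 with 164, Gm23969 with 143, Gm22622 with 140, Snord72 with 124, Gm22270 with 105, AF357399 with 104 and Gm22571 with 99. The median over the 42 was 72. Just inside the limit were Gm22362 with 30 and Snora41 and Gm22027 with 31, and just outside were Snord110 and Gm26394 with 29 and Snora69 with 28. The 42 genes together held 73.7% of all snoRNA counts in those libraries. With the lower depth of the zinc finger arm 9 of the 42 were at 0 in at least 1 library, and Gm22362 was at 0 in both mCherry libraries, as the plot of all 42 genes by library shows.

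**Figure D1:**
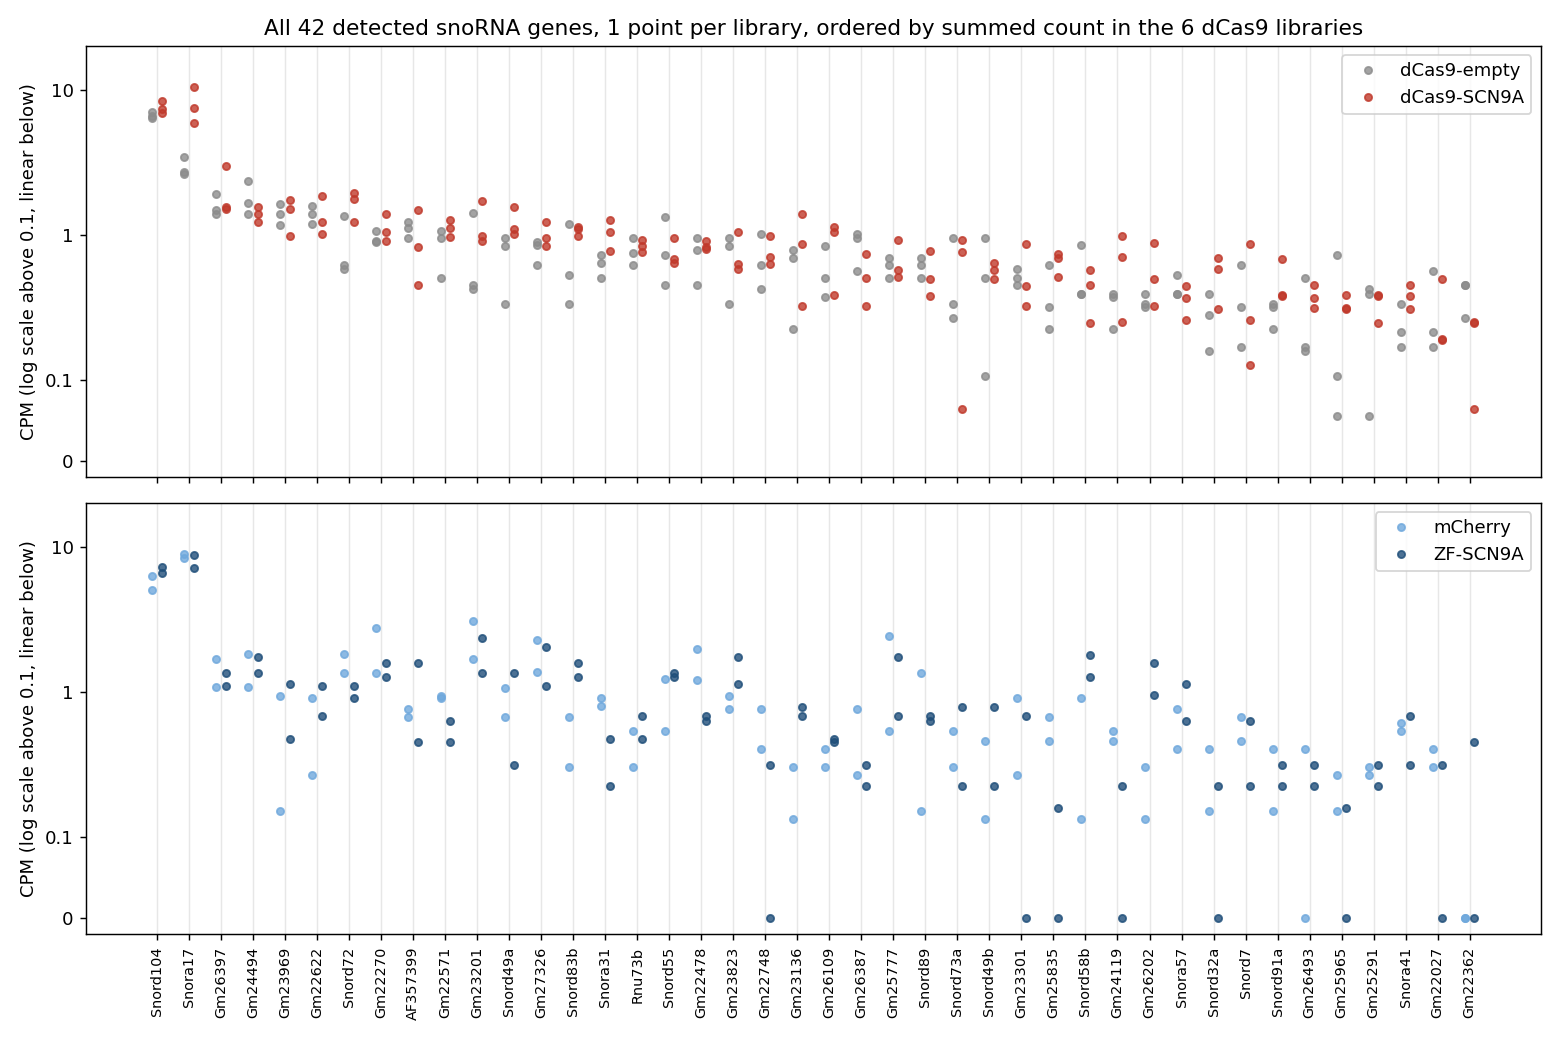
CPM of each of the 42 detected snoRNA genes in each library, dCas9 arm above and zinc finger arm below, on a scale that is logarithmic above 0.1 CPM and linear below, ordered by the summed count in the dCas9 libraries. Snord104 and Snora17 stand above all others in every library, and the Snora17 points of dCas9-SCN9A lie above those of dCas9-empty.

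Snora17, an H/ACA snoRNA, had the highest fold change of the 27 snoRNAs tested in the dCas9 arm. It stood at 2.7, 2.61 and 3.43 CPM with dCas9-empty and at 5.94, 7.48 and 10.5 CPM with dCas9-SCN9A, from 48, 49 and 61 against 92, 121 and 166 reads. All 3 dCas9-SCN9A libraries were above all 3 controls, replicate 3 highest. The ratio of the means was 2.74 and the fitted log2 fold change 1.45 ± 0.21 (SE). Snora17 was singled out because of an earlier call in this contrast, so this is a description and no new evidence. The edgeR quasi-likelihood fit over all genes gave it a Benjamini-Hochberg adjusted p of 0.00955, 1 of 6 genes called (0.041% of 14628 tested). The call was lost without dCas9-SCN9A replicate 3 (1.21, adjusted p 0.0973 by edgeR) and without dCas9-empty replicate 2 (1.39, adjusted p 0.0744 by edgeR). The exact two-sided permutation test over the libraries gave p = 0.1, the smallest that 3 against 3 allows. In bulk RNA, a change in the makeup of the culture and a change in RNA per cell cannot be told apart.

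In the zinc finger arm, whose libraries played no part in choosing it, the mCherry libraries held 8.38 and 8.87 CPM of Snora17, and the ZF-SCN9A libraries 7.10 and 8.82 CPM. The groups overlapped, with a log2 fold change of -0.14 ± 0.25 (SE) and an edgeR adjusted p of 0.862. The exact permutation test gave p = 0.667, where 2 against 2 cannot go below 0.333. The sign turned without ZF-SCN9A replicate 1 (0.030) and with the second strand column (0.049).

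Scaled over all 10 libraries, the level of Snora17 was 2.98 ± 0.45 CPM (SD, n = 3) with dCas9-empty, 8.17 ± 2.39 (n = 3) with dCas9-SCN9A, 8.34 ± 0.31 (n = 2) with mCherry and 7.66 ± 1.16 (n = 2) with ZF-SCN9A. The dCas9-empty libraries were therefore the low ones, and the 6.06 to 10.8 CPM of dCas9-SCN9A spanned the values of both zinc finger groups. The arms differ in depth and were not set up as one comparison, so no test was made between dCas9-SCN9A and mCherry. The difference of the 2 changes was 1.60 ± 0.33 (SE) on the log2 scale with an edgeR adjusted p of 0.00756, 1 of 143 genes called (0.907% of 15766 tested). Its dCas9 side is the contrast for which Snora17 was singled out.

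Snord104, a box C/D snoRNA of the highest count, served as a neighbour in level. It stood at 6.63, 6.34 and 6.97 CPM with dCas9-empty and 7.36, 6.86 and 8.42 CPM with dCas9-SCN9A, groups that overlap, with a log2 fold change of 0.18 ± 0.13 (SE) and an edgeR adjusted p of 0.693. With mCherry it stood at 5.03 and 6.31 CPM and with ZF-SCN9A at 7.26 and 6.56 CPM, both above both controls. Groups did not overlap for 45.6% of all tested genes in that arm. The log2 fold change of Snord104 there was 0.29 ± 0.29 (SE), with an edgeR adjusted p of 0.709. Per kilobase of transcript its mean level in dCas9-empty was 95 CPM against 22.1 for Snora17, and in dCas9-SCN9A 108 against 60.4.

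**Figure D2:**
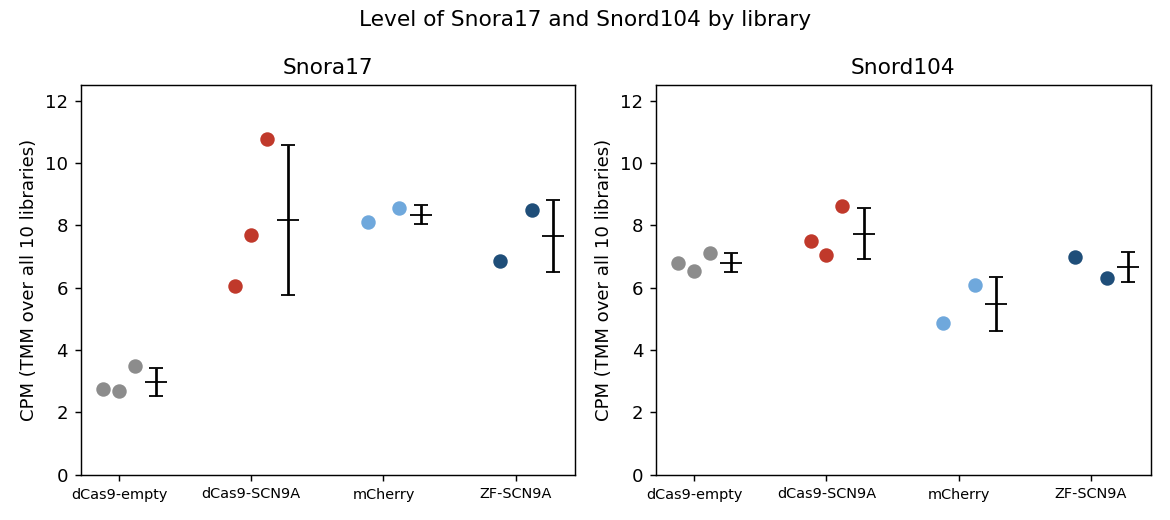
CPM of Snora17 and Snord104 in each of the 10 libraries, scaled together, with the mean and SD of each group beside the points. Snora17 lies between 2.68 and 3.50 CPM in dCas9-empty and between 6.06 and 10.8 CPM in the other 3 groups, while the Snord104 levels of the dCas9 groups overlap.

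Counts at the loci next to Snora17 were mostly near 0. Snora43, annotated as 2 overlapping models nearby on the same strand, had 3 and 0 reads in all libraries. The shorter model lies wholly within the longer, and a read over both can be set aside as ambiguous. These counts therefore do not show absence of the RNA. Snhg7os, annotated on the other strand, had 35 reads in all libraries. It stood at 0.168, 0.107 and 0.225 CPM with dCas9-empty and 0.258, 0.495 and 0.317 CPM with dCas9-SCN9A, groups that do not overlap, all higher. It did not pass the filter, and without one its log2 fold change was 1.07 ± 0.74 (SE) with an edgeR adjusted p of 0.764. With mCherry it was at 0.152 and 0.269 CPM and with ZF-SCN9A at 0.473 and 0.679 CPM, also not overlapping. Among all tested genes, groups did not overlap for 15.6% in the dCas9 arm and 45.6% in the zinc finger arm. Fam69b, a nearby protein-coding gene, had a log2 fold change of -0.13 ± 0.09 (SE) with dCas9-SCN9A and an edgeR adjusted p of 0.667.

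Of the 42 genes 27 passed the filter on low counts in the dCas9 arm and 15 did not. Snora17 was the only one called, and edgeR's unadjusted p was under 0.05 for Snora17 and Snord72, against 10.1% of all tested genes in both directions. A filtered gene can pass through the group in which it is high, so these counts are a description. Fitted log2 fold changes of the 27 ranged from -0.68 to 1.45, with a median of 0.20 beside 0.0054 over all tested genes. Of the 27, 21 were above 0 (77.8%) and 6 below. Above 0 were also 51.7% of all tested genes and 71.6% of those in the shortest of 5 groups by exon length. Their SEs had a median of 0.38, against 0.089 over all tested genes. Without Snora17 the median was 0.19. Without dCas9-empty replicate 3 it was 0.47. The 15 untested genes, with sums of 30 to 55, ranged from -1.01 to 0.96 in the fit without a filter, 11 above 0 and 4 below.

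Among the box C/D genes Snord72, in the ribosomal protein gene Rpl37, stood highest in change. It was at 0.618, 0.586 and 1.35 CPM with dCas9-empty and 1.94, 1.24 and 1.77 CPM with dCas9-SCN9A. One control overlapped the repressor libraries, and its log2 fold change of 0.95 ± 0.36 (SE) had an edgeR adjusted p of 0.381. Snord49a was at 0.337, 0.959 and 0.844 CPM against 1.10, 1.55 and 1.01 CPM, groups that do not overlap, with 0.76 ± 0.39 (SE) and an edgeR adjusted p of 0.530. Its neighbour Snord49b, in the same host, was at 0.505, 0.107 and 0.956 CPM against 0.646, 0.495 and 0.570 CPM, which overlap, and did not pass the filter. Gm24494, in Rabggtb, which encodes an enzyme subunit that attaches lipids to Rab proteins, was at 1.40, 1.65 and 2.36 CPM against 1.23, 1.55 and 1.39 CPM, with -0.37 ± 0.29 (SE) and an edgeR adjusted p of 0.712. The 15 tested box C/D genes had a median log2 fold change of 0.40, 12 of them above 0 (80.0%), beside the 71.6% of short genes given above. Gm23969, in Rpl7a, had 0.02 ± 0.30 (SE) and Gm22571, in Rpl4, 0.40 ± 0.35 (SE), with edgeR adjusted p of 0.990 and 0.757.

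Among the 9 tested H/ACA genes the median was 0.22, with 8 above 0 (88.9%), beside the same 71.6% of short genes. Snora31, in Tpt1, was at 0.505, 0.639 and 0.731 CPM with dCas9-empty and 0.775, 1.05 and 1.27 CPM with dCas9-SCN9A, groups that do not overlap, with 0.72 ± 0.36 (SE) and an edgeR adjusted p of 0.530. It is named because only 3 genes of the 27 had groups that do not overlap, all higher: Snora17, Snord49a and Snora31, 11.1% of the 27 beside 15.6% of all tested genes. The near-identical pair in Rpl5 had fitted values of opposite sign. Gm22270 was at 1.07, 0.906 and 0.900 CPM against 0.904, 1.05 and 1.39 CPM (0.22 ± 0.32, SE), and Gm26387 at 0.562, 1.01 and 0.956 CPM against 0.323, 0.742 and 0.507 CPM (-0.68 ± 0.42, SE). Neither passed, with edgeR adjusted p of 0.872 and 0.632. Gm26397, in Tomm20, the gene of a mitochondrial import receptor, had 2.97 CPM in dCas9-SCN9A replicate 1 and 1.40 to 1.91 CPM in the other 5 of that arm, with 0.32 ± 0.31 (SE) and an edgeR adjusted p of 0.774. Of the genes with neither pair of boxes AF357399, in Rps16, had -0.25 ± 0.38 (SE) and Gm22622 -0.01 ± 0.31 (SE), with edgeR adjusted p of 0.878 and 0.992.

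With ZF-SCN9A 7 of the 42 passed the filter, none was called, and none had an unadjusted p under 0.05, while 4.72% of the 12899 tested genes were called and 16.2% had such a p. DESeq2 gave 2 of the 42 an adjusted p and limma-voom fitted 7, and neither called any, so most of the 42 could not be called there. Without the filter edgeR called none, and 1 of 42 had an unadjusted p under 0.05. The median over the 7 was -0.16, beside 0.0017 over all tested genes. Snord104 (0.29), Gm24494 (0.14 ± 0.60, SE) and Snora17 (-0.14) were highest and Gm22270 (-0.52 ± 0.57, SE), Gm23201 (-0.32 ± 0.50, SE) and Gm27326 (-0.30 ± 0.57, SE) lowest, with edgeR adjusted p of 0.709 to 0.947. Gm23201 had 1.68 and 3.09 CPM in the mCherry libraries against 2.37 and 1.36 CPM, and Gm22270 at 2.74 and 1.34 against 1.26 and 1.58 CPM, so both pairs of groups overlapped. Groups did not overlap for 1 of the 7, Snord104, beside 45.6% of all tested genes. Snord72, which did not pass the filter here, was at 1.83 and 1.34 CPM with mCherry and 1.10 and 0.905 CPM with ZF-SCN9A.

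A sum over all 42 genes takes in those under the filter. The sum, in CPM of all gene counts, was 31.4, 35.1 and 42 with dCas9-empty and 42.3, 47.9 and 52.3 with dCas9-SCN9A. The groups do not overlap, but dCas9-empty replicate 3 and dCas9-SCN9A replicate 1 are nearly level. Without Snora17 the sums were 28.7, 32.5 and 38.6 against 36.3, 40.5 and 41.5, which overlap. With mCherry they were 45.1 and 42.7 and with ZF-SCN9A 44.5 and 44.6, which overlap. The share of reads that mapped outside every annotated exon rose with the sum among the dCas9-empty libraries and not among the dCas9-SCN9A libraries: it was 5.57%, 6.21% and 7.31% in dCas9-empty replicates 1 to 3, and 7.15%, 6.97% and 7.11% in dCas9-SCN9A. It was 7.72% and 7.47% with mCherry and 7.60% and 7.28% with ZF-SCN9A, and its part in the sums was not tested. A count on an intronic snoRNA can also come from unspliced RNA of its host, which these tables do not tell from the mature snoRNA.

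All 29 host genes were tested in both arms. None was called with dCas9-SCN9A by edgeR, beside 0.041% of all tested genes. At an unadjusted p under 0.05 by edgeR, 1 host was higher and 1 lower, beside 10.1% of all tested genes. DESeq2 and limma-voom called none of the hosts either. Their median log2 fold change was 0.020, from -0.16 for Cnot1, the scaffold of a deadenylase complex, to 0.31 for the noncoding Gm15832. Rpl37, the host of Snord72, was at 613, 650 and 633 CPM with dCas9-empty and 636, 733 and 631 CPM with dCas9-SCN9A, with 0.08 ± 0.06 (SE) and an edgeR adjusted p of 0.732. The host of Snord49a, 2410006H16Rik, had 0.03 ± 0.10 (SE), and that of Snora31, Tpt1, 0.07 ± 0.06 (SE). In 16 of 22 pairs with a tested snoRNA the snoRNA lay above its host in log2 fold change, and the median of snoRNA minus host over all 22 was 0.28. In 21 of 22 the gap was within 2 SEs of the snoRNA, and the exception was Snord72. With ZF-SCN9A 1 of 5 pairs had the snoRNA above, and all 5 gaps were within 2 SEs.

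**Figure D3:**
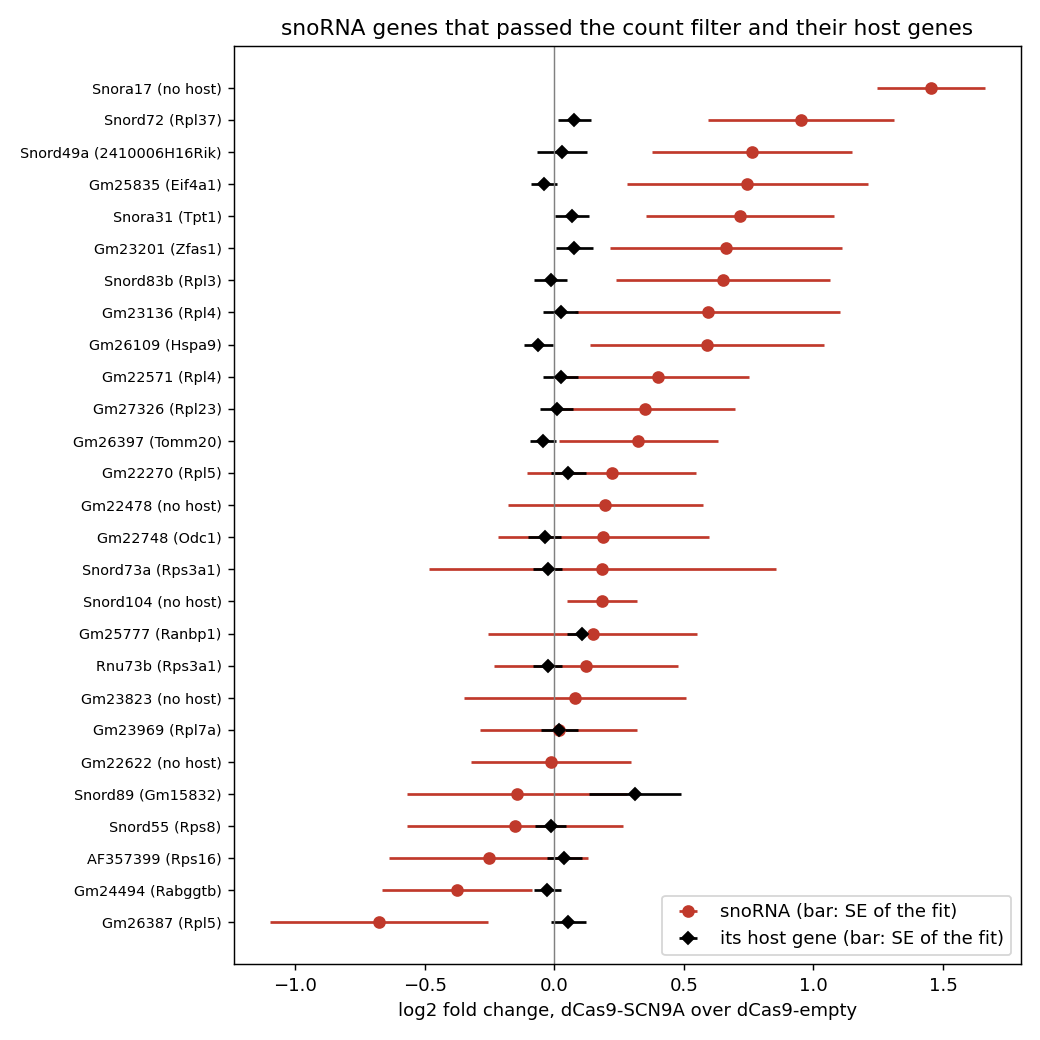
Log2 fold change with dCas9-SCN9A over dCas9-empty of the 27 tested snoRNA genes (circles) and of the host of each (diamonds), with bars of 1 SE. Hosts lie between -0.06 and 0.31, the snoRNA lies above its host in 16 of 22 pairs, and in 21 of 22 the distance between them is within 2 SEs of the snoRNA.

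Per kilobase of annotated exon the hosts stood far above their snoRNAs in these libraries. Silica columns retain short RNA poorly, and a snoRNA count can hold reads from unspliced host RNA. The ratios therefore describe the libraries and not the amounts in the cell. Mean levels in dCas9-empty were 1.34 to 22.3 CPM per kilobase for the 35 snoRNAs with a host and 2.01 to 1248 for the hosts, with medians of 7.25 for the snoRNAs and 333 for the hosts over the pairs. The median ratio of host to snoRNA was 40.5, and the host was higher in 34 of 35 pairs. The exception was Snord89 at 5.51 against 2.01 for Gm15832. The ratio was largest for Gm23136 in Rpl4, at 217.

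With ZF-SCN9A 2 of the 29 hosts rose, both noncoding, and none fell, a share near the 4.72% of all tested genes called in this arm. 2410006H16Rik was at 219 and 272 CPM with mCherry and 290 and 299 CPM with ZF-SCN9A, with a log2 fold change of 0.26 ± 0.07 (SE) and an edgeR adjusted p of 0.00502. Zfas1 was at 138 and 150 against 165 and 176 CPM, with 0.24 ± 0.08 (SE) and an edgeR adjusted p of 0.0343. Both calls were lost in 3 of the 4 fits that leave out a library. In those 4 fits 2410006H16Rik ran from 0.12 to 0.43 and Zfas1 from 0.19 to 0.31. Both were also lost with DESeq2, with a correction for exon length, with all 10 libraries together and with the first strand column. The call of Zfas1 was also lost without a filter. Their snoRNAs did not pass a test: Gm23201 in Zfas1 had the -0.32 given above, and Snord49a, at 1.07 and 0.672 against 0.316 and 1.36 CPM, was not tested. The 11 ribosomal protein hosts had a median of 0.10, beside 0.0017 over all tested genes, and none was called by edgeR. Of them 10 were above 0 (90.9%), beside 50.4% of all tested genes and 58.3% of the shortest of 5 groups by exon length. At an unadjusted p under 0.05 by edgeR 3 of these hosts were higher and 1 lower, beside 16.2% of all tested genes. The one below 0, Rpl13a, had -0.31 ± 0.12 (SE) and an edgeR adjusted p of 0.0958.

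The genes that make and use snoRNAs were read from fixed lists of 68 genes, 64 of them tested. With dCas9-SCN9A edgeR called none, with 3 higher and 3 lower at an unadjusted p under 0.05, beside 10.1% of all tested genes, and DESeq2 called 1. The 4 genes of the box C/D core, Fbl (fibrillarin), Nop56, Nop58 and Snu13, ranged from 0.01 to 0.19 and the 4 of the H/ACA core, Dkc1 (dyskerin), Gar1, Nhp2 and Nop10, from -0.01 to 0.09. Nop56, a scaffold of the C/D particle, was the highest of them at 0.19 ± 0.07 (SE) with an edgeR adjusted p of 0.378. The medians were -0.0022 for 13 assembly factors, -0.0090 for 16 genes of intron release and trimming, 0.032 for 4 genes of the U3 particle and 0.025 for 10 genes of nonsense-mediated decay. With ZF-SCN9A none of these 51 genes was called, with 3 higher and 4 lower at an unadjusted p under 0.05, beside 16.2% of all tested genes. Their list medians were -0.0060 for the C/D core, 0.14 for the H/ACA core, 0.042 for assembly, -0.0061 for trimming, -0.0065 for U3 and -0.13 for nonsense-mediated decay.

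The other list, noncoding host genes, held all the calls in the zinc finger arm. These genes are known mainly for the snoRNAs in their introns, and several of their spliced RNAs are degraded by nonsense-mediated decay. Of 13 tested 5 rose and none fell with ZF-SCN9A, beside 4.72% of all tested genes called, and the list median was 0.28 beside 0.0017 over all tested genes. Gas5 was at 245 and 243 CPM with mCherry and 313 and 296 CPM with ZF-SCN9A, with a log2 fold change of 0.32 ± 0.07 (SE) and an edgeR adjusted p of 1.67e-04. Snhg1 was at 114 and 118 against 149 and 138 CPM (0.31 ± 0.08, SE, edgeR adjusted p 0.00423). Snhg12 was at 78.0 and 81.0 against 106 and 103 CPM (0.40 ± 0.09, SE, edgeR adjusted p 5.72e-04). Both ZF-SCN9A libraries were above both controls for each of these, while groups did not overlap, in either direction, for 45.6% of all tested genes. Snhg5 (0.29 ± 0.08, SE, edgeR adjusted p 0.0132) and Zfas1 were the other 2. Every one of the 5 calls was lost without ZF-SCN9A replicate 1, with fold changes of the same sign, and with DESeq2 only Gas5 remained. In the dCas9 arm the 13 had a median of 0.077 and none was called by edgeR. Of the 13, 1 was higher at an unadjusted p under 0.05 by edgeR (Snhg17, 0.27), beside 10.1% of all tested genes. The difference between the changes in the 2 arms was not called by edgeR for any of the 5: it was -0.27 ± 0.09 (SE) on the log2 scale for Gas5, with an adjusted p of 0.223, and the others had adjusted p of 0.298 to 0.687. The rise is therefore not shown to differ between the arms, whose controls also differ.

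**Figure D4:**
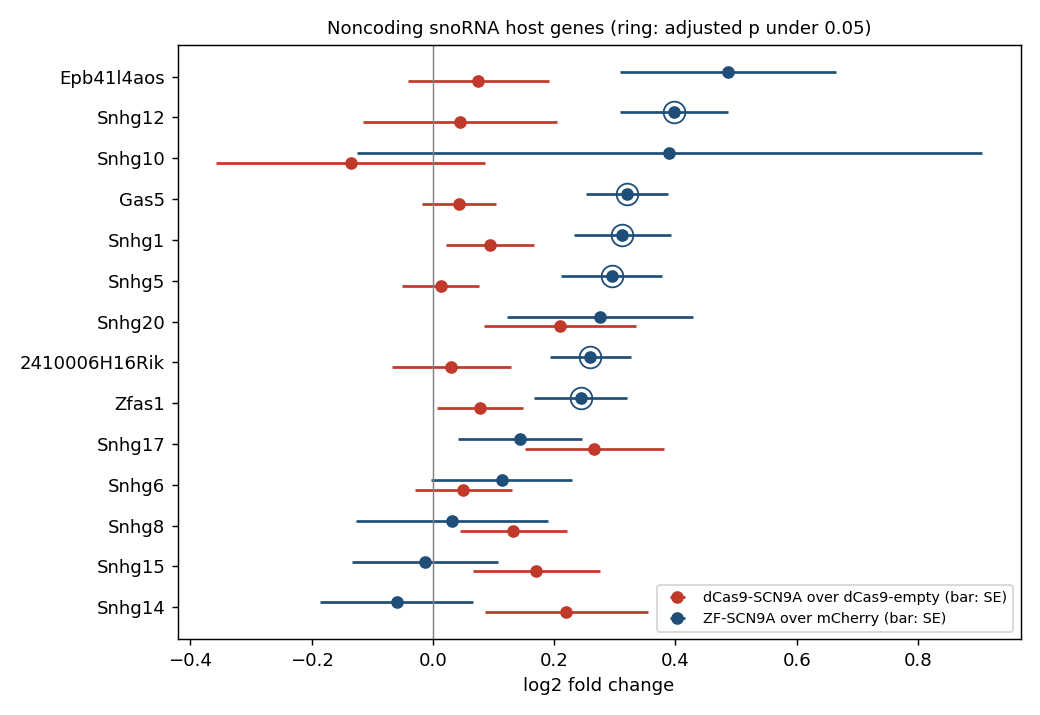
Log2 fold change of the tested genes of the noncoding host list and of 2410006H16Rik, a called host outside that list. Red is dCas9-SCN9A over dCas9-empty and blue ZF-SCN9A over mCherry, with bars of 1 SE. A ring marks values with an edgeR adjusted p under 0.05. The other noncoding hosts of detected snoRNAs, Gm15832 and AA465934, are not drawn. With ZF-SCN9A they had 0.27 ± 0.44 and 0.46 ± 0.25 (SE), with edgeR adjusted p of 0.837 and 0.343. The ringed genes are Snhg12, Gas5, Snhg1, Snhg5, 2410006H16Rik and Zfas1, all with ZF-SCN9A.

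The snoRNAs of Gas5, Snhg1, Snhg12 and Snhg5 could not be followed. Zfas1, also risen, holds Gm23201, whose values are given above. Gas5 (chr1:161034422-161038539) holds 10 annotated snoRNA genes, Snhg1 holds 8, Snhg12 holds 5 and Snhg5 holds 2. All 25 lie wholly under exons annotated for some transcript of the host, and they had 0 counts over the 10 libraries, in which Gas5 itself had 35576. With such cover a count of 0 does not show absence of the RNA.

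The change of a gene went with its exon length in both arms, and snoRNAs are at the short end. With dCas9-SCN9A tested genes were split into 5 groups of equal size by exon length. The group with the shortest exons had a median log2 fold change of 0.094 and the group with the longest -0.059, and at an unadjusted p under 0.05 by edgeR 253 of the short genes were higher and 21 lower, against 44 and 573 of the long. With ZF-SCN9A the medians were 0.047 and -0.035. The 36 other tested genes no longer than the longest tested snoRNA had a median of 0.12 with dCas9-SCN9A, and 23 of them were above 0 (63.9%). A correction of each library for exon length shifts short genes by its construction. After it the median of the tested snoRNAs with dCas9-SCN9A was -0.086, the opposite sign. Snora17 then stood at 1.16 with an edgeR adjusted p of 0.0351. The part of exon length in the snoRNA changes was not tested. Other short RNAs passed the filter in small numbers: 15 miRNA genes had a median of 0.049 with dCas9-SCN9A and 4 genes of the type misc_RNA 0.54. At an unadjusted p under 0.05 by edgeR 3 of these were higher and 2 lower, beside 10.1% of all tested genes. The 2 snRNA genes tested had -0.79 and 2.12, with 1 higher at an unadjusted p under 0.05 by edgeR. The 1 scaRNA gene tested had 0.82. None of these other short RNAs was called by edgeR.

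**Figure D5:**
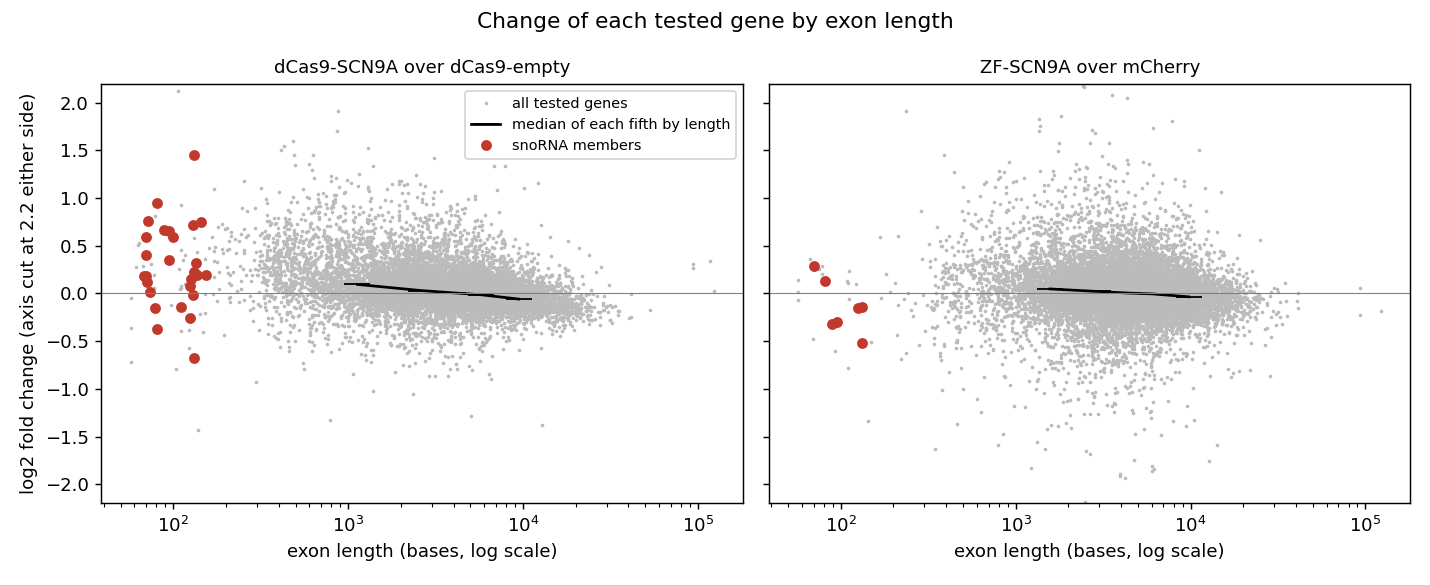
Log2 fold change of every tested gene against its exon length in bases on a log scale, for both arms, with the tested snoRNAs in red and a line through the medians of 5 groups of equal size by length. The line falls from 0.094 to -0.059 with dCas9-SCN9A and from 0.047 to -0.035 with ZF-SCN9A, and the snoRNAs lie at the left end.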

How the data were processed

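RNA was taken from 10 libraries of Neuro2a cells. The authors deposited raw counts per gene for each library, unstranded and for both strand settings, and the unstranded count was used. Of the counts of the 42 genes in both strand columns, 49.2% were in the first (column 3). Each strand column thus rests on fewer reads than the unstranded count. The submitters' processing notes name bcl2fastq 2.20, STAR 2.7.3a, DESeq2 and GRCm38; for trimming, the counting settings and the annotation release the entry is "not given in the sources used here". Of 55401 gene IDs 55141 had a GENCODE M21 entry. The 4 entries that name no gene, holding 25.0% to 28.2% of each library's total, and 4 plasmid entries stayed out of library sizes and tests. No other column of per-sample values was left unused.

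Each arm was fitted with edgeR 4.0.16 in R 4.3.3 (TMM scaling, filterByExpr by group, robust quasi-likelihood test, group only), with Benjamini-Hochberg adjustment over all tested genes and a threshold of 0.05. The difference between the arms was a contrast over all 10 libraries. CPM values were computed from the counts with TMM library sizes, and depth sets their precision: SEs for snoRNAs were several times those of other genes. The test was also run on data simulated from these libraries, with the same spread between replicates for every gene of an arm. The changed genes were drawn from all genes that passed the filter. Of genes changed by 1 on the log2 scale it called 94.9% in the dCas9 arm (14701 genes fitted) and 91.8% in the zinc finger arm (12910 genes fitted). These shares do not apply to snoRNAs, whose median SE in the dCas9 arm was 0.38 against 0.089 over all tested genes. Alternatives were DESeq2 1.42.0, limma-voom (limma 3.58.1), other scaling, filters, strand columns and membership limits, an exon length correction, all libraries together, a replicate block and each library left out.

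Hosts are GENCODE M21 genes of the same strand that span the whole snoRNA. The members and lists were chosen with earlier results of these data known. The text names the 10 members of highest count, the 3 highest and lowest tested in each arm, the 3 genes on each side of the count limit, called genes and the hosts of these; Snora31, Snord49b and Gm15832 were added after their values were seen. No 2 replicates of a group agreed within sampling noise by a chi-square test over genes, so each was counted as a sample. Some of the cell type markers are not reported here.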

Additional observations from a re-analysis of the deposited data

Results flagged for a closer look

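Snora17 changed differently in the 2 arms by a test of the difference itself. The change with dCas9-SCN9A minus the change with ZF-SCN9A was 1.60 on the log2 scale, with an edgeR adjusted p of 0.00756 over 10 libraries. All 3 dCas9-SCN9A libraries were above all 3 of their controls, and the zinc finger groups overlapped. The call was lost without ZF-SCN9A replicate 1 (1.43), without mCherry replicate 1 (1.63), without mCherry replicate 2 (1.56) and with the second strand column (1.38), and adjusted p ran up to 0.147. Snora17 was singled out for its change in the dCas9 arm, so the difference is not independent of that choice.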

How the results depend on the processing

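With dCas9-SCN9A, 1 snoRNA was called; DESeq2, which gave none of the 42 an adjusted p, called 0, and leaving out 1 library gave 0 to 1. The Snora17 value ran from 1.21 to 1.63 with 1 library left out, and its call was lost without dCas9-SCN9A replicate 3 and without dCas9-empty replicate 2. The median of the tested snoRNAs was -0.086 and that of the hosts -0.063 after the exon length correction, by whose construction short genes shift; with 1 library left out the snoRNA median ran from 0.17 to 0.47, highest without dCas9-empty replicate 3. Of the listed snoRNA pathway genes DESeq2 called 1, no filter 2, and leaving out 1 library 0 to 1, where the reported count was 0.

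With ZF-SCN9A the 2 called hosts became 0 with DESeq2, 0 with all 10 libraries together and 0 with strand column 3. They became 1 without a filter, 1 over hosts of tested members, and 0 to 3 with 1 library left out. The calls of 2410006H16Rik and Zfas1 were also both lost with the exon length correction. The 5 called pathway genes became 1 with DESeq2, 1 with all 10 libraries, 3 with the exon length correction, 3 with strand column 4, and 0 to 8 with 1 library left out, 0 without ZF-SCN9A replicate 1 and 8 without mCherry replicate 2. The host median of 0.07 was 0.065 with DESeq2, 0.065 with all 10 libraries, 0.046 with the exon length correction, 0.052 without a filter, 0.084 with plain library size, 0.079 with strand column 3, and 0.064 to 0.11 with 1 library left out. The snoRNA median of -0.16 was 0.075 and 0.092 with strand columns 3 and 4, and -0.15 to 0.54 with 1 library left out. Snora17 turned sign with strand column 4 (0.049) and ran from -0.28 to 0.030 with 1 library left out. The summed level, a log2 ratio of 0.022, was -0.047 with a membership sum of at least 15, and -0.017 to 0.063 with 1 library left out. The Snora17 difference was 1.38 with strand column 4, adjusted p 0.139, and 1.35 to 1.77 with 1 library left out. The cause was not tested for any of these shifts.

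With the replicate number as a block in the fit, 1 snoRNA was called with dCas9-SCN9A (Snora17, 1.44) and 2 pathway genes, and 5 pathway genes and 2 hosts with ZF-SCN9A; the Snora17 difference was 1.57. The numbers were not taken as pairing: same-numbered libraries correlated at 0.238, 0.161 and 0.0397 in the dCas9 arm and at 0.0662 in the zinc finger arm, and dCas9-empty replicate 3 correlated best with dCas9-SCN9A replicate 2.

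Of 560 values for 38 single genes 501 kept their direction and side of the threshold or moved by less than the replicate spread, 28 moved by more and 31 lost a call; no snoRNA other than Snora17 passed in any setting. The median snoRNA sum was 72 reads over 6 libraries, and in the zinc finger arm 7 of 42 passed the filter.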
